A study of Arabidopsis thaliana with 28 samples.

Results

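The miR393 family of Arabidopsis thaliana comprises 4 mature microRNAs cut from the hairpin transcripts of MIR393a and MIR393b, a 5p and a 3p arm from each. They are listed as ath-miR393a-5p, ath-miR393a-3p, ath-miR393b-5p and ath-miR393b-3p, and the species prefix is left out below. Its members were taken by name and not by a threshold on their values. Earlier results of these data were known when the members and the tests were chosen. The members make up 4 of the 421 mature miRNAs in the deposited table. All groups were wild-type Col-0 seedlings. One set was treated with abscisic acid (ABA), the plant hormone of drought and seed dormancy, and the other with an ethanol (EtOH) mock, and both were collected after 0.5, 1, 3, 6, 9, 12 and 24 h. Each of the 14 groups had 2 small RNA libraries, 28 in all. The labels do not say whether the 2 libraries came from separate cultures. A p-value from library values therefore measures the spread between these libraries, which may be technical. In tests with times or groups as the unit, such as those of the 5p arms, it measures the spread between times or groups. The sources used here give neither the ABA concentration nor the age of the seedlings. RNA came from whole seedlings, in which fewer cells of a type and less RNA per cell cannot be told apart.

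Auxin is perceived by the F-box proteins TIR1 and AFB, which on binding the hormone mark Aux/IAA repressors for destruction and so release the transcription factors of the auxin response. The 5p arm of miR393 is the guide strand known to direct cleavage of TIR1 and AFB mRNAs, and miR393 is known to take part in responses to salt, drought, nutrients and bacterial flagellin. The 3p arms are the passenger strands, formerly written miR393*. In Arabidopsis the passenger strand of MIR393b is known from immunity, where it is bound by AGO2 and lowers MEMB12, a SNARE protein of the Golgi.

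The mature sequences, from the RefSeq annotation of assembly TAIR10.1, are shown because they decide which members can be measured apart. Capitals mark the seed, bases 2 to 8, and each sequence reads 5′ to 3′.
miR393a-5p: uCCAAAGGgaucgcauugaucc
miR393b-5p: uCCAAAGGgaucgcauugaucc
miR393a-3p: aUCAUGCUaucucuuuggauu
miR393b-3p: aUCAUGCGaucucuuuggauu
The 5p arms have 22 bases, differ at 0 of them, and occur at 2 places in the genome. They lie on the forward strand at chr2:16652111-16652132 and chr3:20691657-20691678, and no other annotated entry of the table shares their seed. Their reads therefore cannot be assigned to MIR393a or MIR393b. The 3p arms have 21 bases, lie at chr2:16652205-16652225 and chr3:20691778-20691798, also on the forward strand, and differ at 1 base, the last of the seed. Each occurs once in the genome. The sources used here do not say how many mismatches were allowed in mapping, so some reads of 1 passenger strand could have been counted for the other.

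The hairpins are shown with the arms in capitals, since the arms are alike and the stretch between them is not.
MIR393a: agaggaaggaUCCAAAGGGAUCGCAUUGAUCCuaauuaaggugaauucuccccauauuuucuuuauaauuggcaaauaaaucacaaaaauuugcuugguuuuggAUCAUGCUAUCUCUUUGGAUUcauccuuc
MIR393b: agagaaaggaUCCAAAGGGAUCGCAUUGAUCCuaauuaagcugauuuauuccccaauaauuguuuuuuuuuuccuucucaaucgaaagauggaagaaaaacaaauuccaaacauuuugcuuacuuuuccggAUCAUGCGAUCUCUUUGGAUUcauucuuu
MIR393a (AT2G39885, chr2:16652101-16652233) is 133 bases long with 72 bases between its arms. MIR393b (AT3G55734, chr3:20691647-20691806) is 160 bases long with 99 bases between them. A predicted fold paired 90 bases of MIR393a with a minimum free energy of -45.9 kcal/mol and 114 bases of MIR393b with -55.1 kcal/mol. Neither overlaps another annotated gene. The nearest protein-coding gene is MYB25 (AT2G39880), 2574 bases from MIR393a, and PROT2 (AT3G55740), 3627 bases from MIR393b.

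The sites of the guide strand in the auxin receptors were searched for in the annotated mRNAs, to show what the 5p sequence can pair with. Sites are printed in the sense of the mRNA, 5′ to 3′, and capitals mark bases not paired with the miRNA, a G:U pair counting as unpaired.
AFB2: gAaAcaaugcgaucccuuugga
AFB3: gAaAcaaugcgaucccuuugga
TIR1: gAGAcaaugcgaucccuuugga
AFB1: gAGAcCaugcgaucccuuugga
Of 31340 genes scanned, AFB2, AFB3 and TIR1 were those with a site of at most 3 unpaired bases. AFB2 (AT3G26810, chr3:9870237-9870258, forward strand) and AFB3 (AT1G12820, chr1:4369085-4369106, reverse strand) carry the same site with 2 unpaired bases. The site in TIR1 (AT3G62980, chr3:23273727-23273748, reverse strand) has 3, of which 1 is a G:U pair. The site in AFB1, annotated as GRH1 (AT4G03190, chr4:1405341-1405362, reverse strand), has 4, of which 1 is a G:U pair. All 4 sites lie in coding sequence within one exon, and the bases opposite positions 10 and 11 of the miRNA, where a plant miRNA directs the cut, are paired in each. The best windows in the more distant receptors AFB4 and AFB5 left 7 and 8 bases unpaired, with positions 10 and 11 not both paired.

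For the passenger strands the site in MEMB12 (AT5G50440, chr5:20537943-20537963, reverse strand, coding sequence) is aauUcaaagagaAUgcUugaA, with capitals as above. It leaves 5 bases unpaired with either strand, of which 2 are G:U pairs for miR393b-3p and 1 for miR393a-3p. MEMB12 was looked at because it is a known target, and not as a result of the scan. The same scan with the 3p arms, over 31342 genes, gave 1 window with at most 3 unpaired bases, for miR393b-3p in AT5G34770 (chr5:12957583-12957603, forward strand), a gene with no annotated coding part. It left 3 bases unpaired, with positions 10 and 11 paired. The levels of these mRNAs were not analysed here.

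The deposited values are group means of normalised read counts, 1 value per group and miRNA. The group totals over all 421 entries were 4305800 to 7644818 normalised reads. Low and middling means could be split back into the 2 library values behind them, where only 1 pair of whole read counts gave the deposited mean. Both 3p arms could be split in all 14 groups, and the 5p arms, for which 215 to 3740 pairs of counts fitted a mean, in none. The library with the larger size factor in a group is called library a and the other library b.

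The guide strand was among the most abundant entries in every group and rose with ABA. The miR393a-5p and miR393b-5p entries held equal values in 6 of 14 groups and differed by at most 5.824 normalised reads, 0.000567% of the value, so they are 1 measurement and are called miR393-5p. In the mock groups its mean normalised count was 700552 at 0.5 h, 702798 at 1 h, 414504 at 3 h, 515907 at 6 h, 506058 at 9 h, 349845 at 12 h and 489692 at 24 h. In the ABA groups it was 736617, 1119419, 829945, 1116551, 924554, 744804 and 1027090 at the same times. The ABA mean was above the mock mean at 7 of 7 times. Every ABA group was above every mock group, from 736617 at its lowest against 702798 at the highest mock value, although each time had been scaled by itself.

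The rise was smallest at the start of treatment. ABA over mock was 1.59-fold at 1 h and lay between 1.83-fold and 2.16-fold from 3 h on. On the log2 scale the ratios from 0.5 to 24 h were 0.07, 0.67, 1.00, 1.11, 0.87, 1.09 and 1.07. Their mean was 0.84 (SE 0.13, n = 7 times), or 1.79-fold, with an adjusted p of 0.00104 in limma fitted to the ratios of 381 miRNAs with Benjamini-Hochberg adjustment. In that fit 28.9% of the 381 miRNAs passed the threshold of 0.05, 13.1% were raised and 15.7% lowered. A ratio above 0 at all 7 times was seen in 10.2% of miRNAs. An exact two-sided sign-flip permutation test over the 7 times gave p = 0.0156, the smallest that 7 times allow. With times as the unit this test has no library replication for miR393-5p.

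The mean log2 ratio was 1.04 at the 4 later times, 6 to 24 h, and 0.58 at the 3 earlier ones, a difference of 0.45. An exact permutation test over the 35 splits of the times gave p = 0.0571, where 0.0286 is the smallest possible. Scaled to the total of all other miRNAs, the difference was 0.48 with an exact permutation p of 0.0286. Without the 0.5 h time it was 0.20 with an exact permutation p of 0.2. In the authors' deposited table, miR393a-5p had an adjusted p of 4.15e-11 at 12 h and 0.0019 at 24 h, and between 0.142 and 0.946 at the other times. The share of all miRNAs with an adjusted p under 0.05 in the authors' deposited table was 24.0% at 12 h and 15.3% at 24 h, and 11.2%, 4.65%, 0.246%, 3.87% and 5.39% from 0.5 to 9 h.

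As a share of the group total, the miR393a-5p entry took 7.18% to 12.0% in mock and 12.5% to 19.7% in ABA, and the entry of its twin adds the same again, since the total counts both. The highest share was at 6 h of ABA and the lowest at 12 h of mock. In 12 of 14 groups a miR393-5p entry had the highest value in the table, and in mock at 1 h and 12 h miR159a, the regulator of GAMYB-like MYB mRNAs, was above it. The log2 ratio of the group total itself, ABA over mock, was -0.06 at 0.5 h and 0.13 to 0.47 from 1 h on, highest at 3 h. This ratio was not tested, and the total includes both miR393-5p entries. Scaled to the group total, the mean log2 ratio of miR393-5p was 0.60 (adjusted p = 0.00103, limma), and scaled to the total without the miR393-5p entries it was 0.80. Scaling to the group total moved the median log2 ratio of all 381 miRNAs from -0.03 to -0.27, and the calls from 50 raised and 60 lowered to 24 raised and 111 lowered. With the miR393-5p entries left out of the total, the median was -0.07, with 43 raised and 69 lowered.

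**Figure D1:**
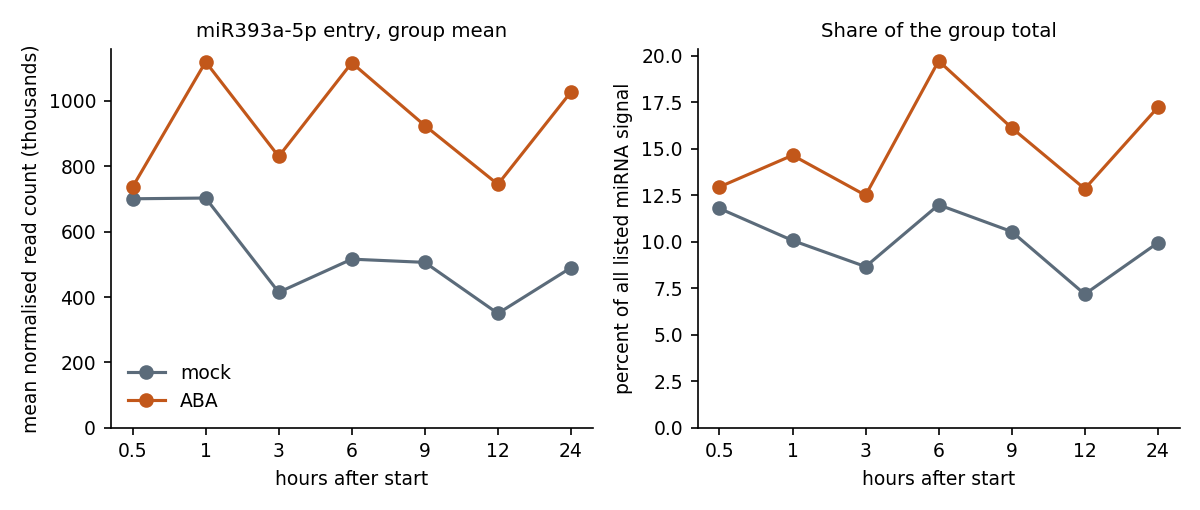
Level of miR393-5p in the 14 groups against hours after the start of treatment, as the deposited mean normalised count (left) and as the percent of the group total (right), with 1 point per group and no error because single libraries could not be recovered. The ABA points lie above the mock points at 7 of 7 times, and the gap is smallest at 0.5 h.

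The passenger strand of MIR393a moved the other way. Its library values in mock were 841 and 721 normalised reads at 0.5 h, 842 and 783 at 1 h, 1258 and 803 at 3 h, and 685 and 705 at 6 h, with library a first. They were 868 and 976 at 9 h, 998 and 1055 at 12 h, and 1310 and 1226 at 24 h. In ABA the values were 640 and 679 at 0.5 h, 799 and 573 at 1 h, 600 and 530 at 3 h, and 442 and 306 at 6 h, followed by 399 and 590 at 9 h, 525 and 619 at 12 h, and 531 and 293 at 24 h. Both ABA libraries were below both mock libraries at 6 of 7 times, and the groups overlapped at 1 h. The lowest ABA value and the highest mock value were both at 24 h. These values rest on 201 to 1728 reads per library.

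The mean ABA minus mock difference of miR393a-3p over the 7 times was -0.81 on the log2 scale (SE 0.10, 14 groups of 2 libraries), with an adjusted p of 6.66e-07 in limma over 358 miRNAs. In that comparison 47.5% of miRNAs passed and 24.6% were lowered. Lying below mock in both libraries at 6 or more times was seen in 4.75% of miRNAs. By time, the difference was -0.24 at 0.5 h (adjusted p = 0.668), -0.26 at 1 h (0.711) and -0.83 at 3 h (0.0542), each with an SE of 0.26. At these times 1.68%, 2.51% and 2.51% of miRNAs were lowered. It passed at 6 h with -0.92 (adjusted p = 0.0271), at 9 h with -0.92 (0.0221), at 12 h with -0.85 (0.0395) and at 24 h with -1.68 (7.87e-05). From 6 to 24 h the shares lowered were 4.47%, 6.15%, 3.91% and 11.2%. At 24 h the call held without each of the 4 libraries in turn, from -2.11 to -1.25. At 6 h and at 9 h it held in 1 of 4 such fits and at 12 h in 0 of 4.

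The fall of miR393a-3p was larger late than early. The mean difference at 6 to 24 h minus that at 0.5 to 3 h was -0.65 (SE 0.20, adjusted p = 0.0297, limma), in a comparison where 15.9% of miRNAs passed and 10.1% were lowered. This call held in 19 of the 28 fits that leave out 1 library. The F test of any difference of the effect between times gave an adjusted p of 0.121, where 6.42% of miRNAs passed. The authors' deposited table gives miR393a-3p adjusted p-values of 8.27e-07 at 12 h and 5.53e-07 at 24 h. At the other times that deposited table of the authors has none under 0.05, with 0.69 at 0.5 h, 0.967 at 1 h, 0.517 at 3 h, 0.185 at 6 h and 0.139 at 9 h.

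The passenger strand of MIR393b also fell, by less. In mock its library values were 6015 and 7507 normalised reads at 0.5 h, 6249 and 6101 at 1 h, 5622 and 5481 at 3 h, and 4395 and 3780 at 6 h. They were 5662 and 5279 at 9 h, 6765 and 6355 at 12 h, and 7355 and 7888 at 24 h. In ABA they were 5625 and 5967 at 0.5 h, 6508 and 5278 at 1 h, 4607 and 3391 at 3 h, and 2492 and 1780 at 6 h, then 3289 and 3996 at 9 h, 5435 and 4995 at 12 h, and 5782 and 3161 at 24 h. As for the other passenger strand, the ABA libraries were below the mock libraries at 6 of 7 times and overlapped them at 1 h. Its lowest values in both treatments were at 6 h. The values rest on 1302 to 9701 reads per library.

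The mean difference of miR393b-3p was -0.50 (SE 0.09, adjusted p = 0.000216, limma). Single times passed at 6 h, with -0.95 (adjusted p = 0.0178), and at 24 h, with -0.83 (0.0199), each with an SE of 0.25. At 24 h the ABA libraries stood apart from each other, and without library b of that group the difference was -0.40 with an adjusted p of 0.379. Each of these calls held in 1 of the 4 fits that leave out a library of its time. At the other times the difference was -0.21 at 0.5 h (adjusted p = 0.683), -0.08 at 1 h (0.929), -0.49 at 3 h (0.25), -0.59 at 9 h (0.117) and -0.33 at 12 h (0.481). Late minus early was -0.42 (SE 0.19, adjusted p = 0.129), and the F test of a difference between times gave 0.409. In the authors' deposited table its adjusted p-values were 0.0529 at 12 h and higher at the other times.

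Time courses within a treatment were tested on a scaling over all libraries, and 1 of the 4 tests passed. The F test of the time course of miR393b-3p passed in ABA, with an adjusted p of 0.0246 (limma, 14% of miRNAs passed), and lay at 0.291 in mock. In ABA its group mean on that scaling was 5572 at 0.5 h, 2465 at 6 h and 4822 at 24 h. The call was lost, with adjusted p-values of 0.0524, 0.0578 and 0.193, without library a at 0.5 h, library b at 0.5 h or library b at 6 h of ABA. For miR393a-3p the adjusted p was 0.0806 in mock, where 14.5% of miRNAs passed, and 0.425 in ABA. The outcome in mock was the same in 24 of the 28 fits that leave out 1 library. With the deposited scaling, the F test for miR393a-3p gave an adjusted p of 0.14 in mock and 0.0502 in ABA (limma).

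The passenger strands differed in read count far more than in response. In each of 14 groups miR393a-3p was below miR393b-3p, by a mean log2 difference of the group means of -2.85, or 7.21-fold (exact two-sided sign-flip permutation p = 0.000122, the smallest possible). The arms have the same length, but whether both sequences are counted equally well was not tested. A constant offset in counting would recur in every group, so this test cannot tell it from a difference in level. The excess was 6.46-fold over the 7 mock groups and 8.05-fold over the 7 ABA groups. The log2 ABA effect on miR393a-3p minus that on miR393b-3p had a mean of -0.32 (SD 0.31) and was below 0 at 6 of 7 times, with an exact permutation p of 0.0469. That call did not hold in 6 of the 7 fits that leave out a time, where the exact p was 0.0625 or 0.0938. At 24 h miR393b-3p was 6.01-fold above miR393a-3p in mock and 10.9-fold in ABA.

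The 5p measurement, which both hairpins share, rose with ABA while both 3p arms fell. Since both arms are read from the same libraries at a time, the difference of their log2 ratios does not depend on scaling. The ratio of miR393-5p minus that of miR393a-3p had a mean of 1.64 (SD 0.78, range 0.32 to 2.69, n = 7 times), and minus that of miR393b-3p a mean of 1.32 (SD 0.61, range 0.29 to 2.05). Both differences were above 0 at 7 of 7 times, with an exact permutation p of 0.0156 in each, the smallest possible, and also 0.0156 after adjustment over the 2 hairpins. Which hairpin gave the added 5p reads cannot be told apart.

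The strands were also compared as miR393-5p reads per read of both 3p arms together, whose lengths differ from it by 1 base. Whether these sequences are counted equally well was not tested. The ratio is therefore read between groups and not as the true balance of the strands. In mock the ratio was 92.9 at 0.5 h, 101 at 1 h, 63.0 at 3 h, 108 at 6 h, 79.2 at 9 h, 46.1 at 12 h and 55.1 at 24 h. In ABA it was 114, 170, 182, 445, 223, 129 and 210 at the same times. The ABA ratio was above the highest mock ratio, 108 at 6 h, in every ABA group. ABA over mock was smallest at 0.5 h, 1.23-fold, and largest at 6 h, 4.12-fold.

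**Figure D2:**
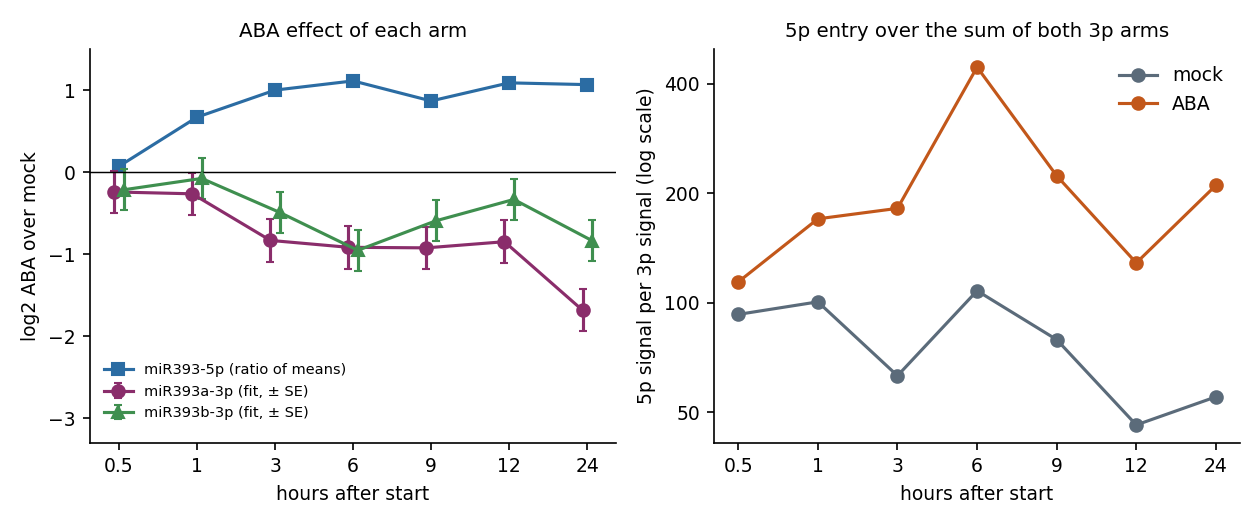
Left, log2 of ABA over mock against hours after the start of treatment for miR393-5p (ratio of deposited means) and the 3p arms (limma estimates with bars of 1 SE). Right, miR393-5p normalised reads per normalised read of both 3p arms together, on a log axis, in mock and ABA; the ABA ratio was 1.23-fold to 4.12-fold the mock ratio.

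Other miRNA hairpins give the background to this contrast. For 66 hairpins both arms were listed with a mean of at least 50 normalised reads, and the mean ABA effect of the less abundant arm was subtracted from that of the more abundant arm. The median of the 66 differences was 0.02 and 34 were above 0. MIR393a had the highest difference and MIR393b the next, followed by miR169g with 1.19. At the other end miR398a had -1.64 and miR156f -1.40, so that differences of this size occurred in both directions. A difference above 0 at 7 of 7 times was seen in 7 hairpins, MIR393a and MIR393b among them, and a difference below 0 at 7 of 7 times also in 7. In 16 hairpins the mean effect was positive for the abundant arm and negative for the other. The pair of miR393 points share the 5p value and are not independent.

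**Figure D3:**
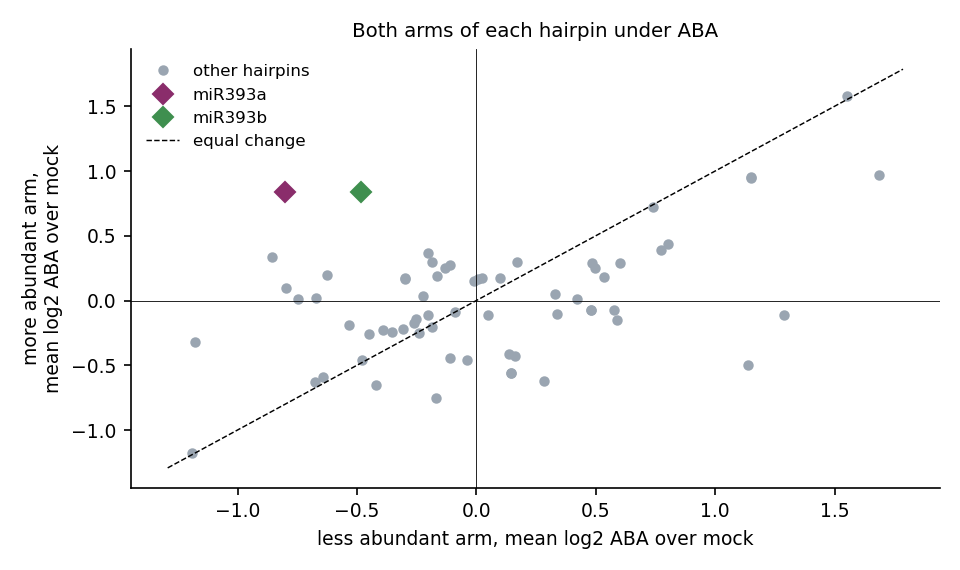
Mean log2 of ABA over mock of the less abundant arm (x axis) and of the more abundant arm (y axis) for 66 miRNA hairpins, 1 point each. MIR393a and MIR393b lie at upper left, with 0.84 for the shared 5p arm and -0.80 and -0.48 for the 3p arms.

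Across the 14 groups, on log2 group means with one scaling over all groups, Pearson's r was -0.85 between miR393-5p and miR393a-3p, -0.70 between miR393-5p and miR393b-3p, and 0.78 between the 3p arms. These are descriptions over groups that share treatment and scaling. The entries most like miR393-5p were miR8177 (r = 0.92), miR8174 (0.91), miR8182 (0.90), miR167c-5p (0.89) and miR397b (0.89), of which miR397 is known to lower laccases. Most like miR393a-3p were miR844-3p (0.94), miR169b-3p (0.88), miR863-3p (0.88), miR396b-5p (0.88) and miR167a-3p (0.88). Most like miR393b-3p were miR837-5p (0.81), miR5642b (0.80), miR829-5p (0.79), miR472-3p (0.79) and miR844-3p (0.77).

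The other miRNA families of the auxin pathway held raised and lowered entries with the deposited scaling. These are miR160 and miR167, which act on auxin response factors, miR164, on NAC factors of lateral root and organ boundaries, miR390, which sets off the tasiRNAs of further response factors, and miR847, on the Aux/IAA gene IAA28. Of their 21 entries 5 were raised, 6 lowered and 10 not called in the fit of ratios, with a median log2 ratio of -0.01 against -0.03 over all 381 miRNAs, of which 13.1% were raised and 15.7% lowered. These counts take in 3p arms as well as guide strands, and the largest change in each direction was in a 3p arm. Entries with 1 sequence count separately here, so miR390a-5p and miR390b-5p, which are the same sequence, are 2 of the 6 lowered. The largest rise was in miR167c-3p, 0.77 (SE 0.11, adjusted p = 0.000547, limma), and the largest fall in miR167a-3p, -1.18 (SE 0.27, adjusted p = 0.00816). The guide strands shared by miR160a, miR160b and miR160c stood at 0.01 (adjusted p = 0.953). The sequence shared by miR167a-5p and miR167b stood at -0.32 and was not called (adjusted p = 0.0624, limma). The effect on miR393-5p, 0.84, was above that of all 21 entries in this fit, a difference that was not tested.

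A length of 22 bases is uncommon among plant miRNAs and is known to go with secondary siRNA production from a cleaved target. Of 43 other entries of 22 bases in the fit of ratios 4 were raised and 7 lowered, and of 273 entries of 21 bases 39 were raised and 43 lowered.

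Upstream of the hairpins the core ACGTG of the ABA response element was searched on both strands in the 1000 bases before the annotated hairpin start. MIR393a had 0 matches and MIR393b had 3, of which a pair overlap on opposite strands. At least 1 match was found for 159 of 326 annotated miRNA hairpins, 48.8%. The auxin response motif TGTCTC had 0 matches in both windows, against 40.5% of hairpins with at least 1.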

How the data were processed

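Small RNA libraries of ABA-treated and mock seedlings were grouped by treatment and time from the titles. The submitters' processing notes name FastQC, STAR and TAIR10. The sources used here do not give the counter, the mismatch and multiple-mapping settings or the normalization. The deposited signal columns hold 1 mean normalised count per group for 421 miRNAs, per the file headers. The authors also deposited log2 ratios (ABA over mock, with some entries that are not numbers) and adjusted p-values for each time.

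Each mean was found to be the mean of 2 whole counts divided by size factors (0.687 to 1.36), since 100% of low values split this way in each group. Unique splits gave 5315 of 5894 values (90.2%), and 363 miRNAs could be split in all groups. The method was tested on simulated data. Single libraries' depths are unknown beyond these: recovered counts, without the most abundant miRNAs, sum to 124594 to 356062 per library. The recovered library values cannot be matched to the replicate numbers in the titles.

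Library values plus a pseudocount of 1 were fitted on the log2 scale with limma 3.58.1 (eBayes with trend, R 4.3.3, 14 residual degrees of freedom) for 358 miRNAs with at least 1 in at least 2 libraries. This understates changes of low miRNAs. For miR393-5p, limma was fitted to the 7 log2 ratios of deposited means of 381 miRNAs with a ratio at all times. Single values had exact permutation tests. Tests were two-sided, with Benjamini-Hochberg adjustment over all miRNAs tested and 0.05 as the threshold. Names matched the annotation for 413 of 421 entries, by name only, as the builds differ in release. Folds came from RNAfold 2.7.2. Alternatives were the pseudocount, scaling, filter and shared spread, and leaving out each library or time.

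Likeness was ranked by Pearson's r over 14 groups among miRNAs with a mean of at least 50, counting each sequence once and taking the 5 highest. Auxin families are given by counts with the largest rise and fall. The members, lists and tests were chosen with earlier results of these data known.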

Additional observations from a re-analysis of the deposited data

Results flagged for a closer look

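The ABA effect on miR393a-3p differed between the later and the earlier times, and this test of the difference between the 2 sets of times is what marks it for a closer look. The mean log2 difference at 6 to 24 h minus that at 0.5 to 3 h was -0.647 (SE 0.198, adjusted p = 0.0297, limma). It stayed negative in all 28 fits without 1 library, but the call held in only 19 of them. The F test of any difference of the effect between times did not pass (adjusted p = 0.121, limma).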

How the results depend on the processing

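The mean effects over 7 times kept their direction and call under every alternative run: miR393-5p from 0.60 to 0.97, miR393a-3p from -0.88 to -0.75 and miR393b-3p from -0.56 to -0.44 on the log2 scale. The differences between 5p and 3p arms kept theirs too, with exact p = 0.0313, the smallest possible, without any 1 time. The late minus early effect of miR393a-3p ran from -0.755 to -0.539 without 1 library each, with an adjusted p up to 0.0734. That of miR393b-3p ran from -0.527 to -0.309 in such fits, and passed at -0.527 (adjusted p = 0.0364) without ABA 24 h library a. The late minus early effect of miR393-5p was 0.479 (exact permutation p = 0.0286) when scaled to the total without the miR393-5p entries, and 0.199 to 0.664 without 1 time. The difference of the ABA effects of the 3p arms ran from -0.378 to -0.229 without 1 time. The effect of miR393b-3p at 1 h, -0.08, turned to 0.059 with the median of all miRNAs set equal in each library and ran from -0.226 to 0.0757 without 1 library, the latter without ABA 1 h library b; it was not called in any fit. With only the 4 libraries of a time fitted, the calls at 6 h (miR393a-3p, adjusted p = 0.0598; miR393b-3p, 0.0832) and of miR393b-3p at 24 h (0.0993) were lost. The causes were not tested. Without ABA 24 h library a the F test between times passed for miR393a-3p (adjusted p = 0.0216). The planned count test is not reported, since the columns are means of 2 libraries and not counts. No paired analysis was possible because the deposited columns are group means and the recovered library values cannot be matched to the replicate numbers in the titles. With 2 libraries a group and none recoverable for miR393-5p, its single times could not be tested here. Groups from which 1 library was left out keep a lone library, assumed to vary like the others.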
